A study of Mus musculus with 2 samples.

Results

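The 10 genes described here encode enzymes that make, use or degrade ceramide and sphingomyelin. They were taken as the rows of the deposited matrix that carry the symbols *Sptlc1*, *Sptlc2*, *Degs1*, *Degs2*, *Cers2*, *Cers4*, *Ugcg*, *Smpd1*, *Sgms1* and *Asah1*, 1 row each of 19465 genes. Their levels were read from spatial transcriptomics of 2 dorsal skin sections, 1 from an *S1pr2 fl/fl* mouse and 1 from an *S1pr2 fl/fl K14-Cre* mouse, written *S1pr2 f/f* and *S1pr2 f/f K14-Cre* in the labels and called *S1pr2 fl/fl* and *K14-Cre* below. Both mice carried floxed *S1pr2*, the gene of a sphingosine-1-phosphate receptor. Both received imiquimod (IMQ), a Toll-like receptor agonist that induces psoriasis-like inflammation, as 62.5 mg of 5% cream daily for 7 days from 8 weeks of age, 1 day after depilation. The sections differed in the Cre recombinase, whose keratin 14 promoter is active in basal keratinocytes and in their descendants. No section of untreated skin was analysed here. With 1 section per genotype there was no replicate, so genotype, mouse, section and library cannot be told apart, no test was made and intervals cover counting error only.

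Ceramides are made de novo in the endoplasmic reticulum. Serine palmitoyltransferase starts the pathway with the subunits encoded by *Sptlc1* and *Sptlc2*, ceramide synthases of the Cers family add fatty acids of different length, and dihydroceramide desaturases encoded by *Degs1* and *Degs2* complete the molecule. *Degs2* also makes the phytoceramides of skin. In the epidermis, ceramide is stored as glucosylceramide, made by *Ugcg*, and as sphingomyelin, made by sphingomyelin synthases such as *Sgms1*. Acid sphingomyelinase, the product of *Smpd1*, releases ceramide from sphingomyelin in the stratum corneum, where it is a main lipid of the permeability barrier. Acid ceramidase, encoded by *Asah1*, splits ceramide into fatty acid and sphingosine, from which sphingosine-1-phosphate can be made.

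A spot of the array covers a small area that can hold several cells of different types, so fewer cells of a type and less RNA per cell cannot be told apart. Levels are UMIs (unique molecular identifiers, 1 per captured probe product) of a gene per 1000000 UMIs of all genes in the same spots, here CPM. Each gene was read by its own probes, so levels are compared for 1 gene between spots and not between genes. The *S1pr2 fl/fl* section held 5315351 UMIs in 1282 spots (median 3542.5 per spot), against 2845826 UMIs in 981 spots (median 2319) with *K14-Cre*. *S1pr2* itself had 154 UMIs (29.0 CPM, 95% interval 24.6 to 33.9) and 54 UMIs (19.0 CPM, 14.3 to 24.8). Where its probes lie relative to the floxed part is not given in the sources used here, so these counts do not check the deletion. The 1226 olfactory, vomeronasal, taste and trace amine receptor genes, known mainly from sensory epithelia, together stood at 2715 and 7330 CPM. In each named region, every one of the 10 enzymes had more UMIs than 95% of these receptor genes, with 1 exception, *Degs2* in the developmental muscle region of the *K14-Cre* section (4 UMIs).

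Spots were clustered in each section without the genes of this pathway, and clusters were called by marker lists. The keratinocyte region held 222 *S1pr2 fl/fl* and 177 *K14-Cre* spots along the upper edge of the sections. Keratinocyte markers made up 13.0% and 6.06% of its UMIs. Within them, 5 differentiation genes (*Krt1*, *Krt10*, *Lor*, *Flg*, *Ivl*) made up 4.47% and 0.763% of all UMIs, and 5 basal genes (*Krt5*, *Krt14*, *Krt15*, *Col17a1*, *Itga6*) 3.58% and 3.11%. Below it lay the region called sebaceous, with 210 and 297 spots, where 7 of 7 sebaceous markers were at least 2-fold higher than in the other spots in *S1pr2 fl/fl*, and 5 of 7 and 6 of 7 in its 2 *K14-Cre* clusters. Neither of these *K14-Cre* clusters had a sebaceous marker among its 10 leading genes, which included *Olfr45* in one and *Tas2r116* in the other. Skeletal muscle regions held 122 and 319 spots. A dermal fibroblast region of 189 spots was named in *S1pr2 fl/fl* alone, where 3 further clusters stayed unnamed, 1 of them a shallow cluster of 167 spots (median 918 UMIs) with 7 of 7 skeletal muscle markers at least 2-fold higher, and a developmental muscle region of 181 spots in *K14-Cre* alone. The maps of the sections show the layers and the contrast between *Cers4* and *Smpd1*.

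**Figure D1:**
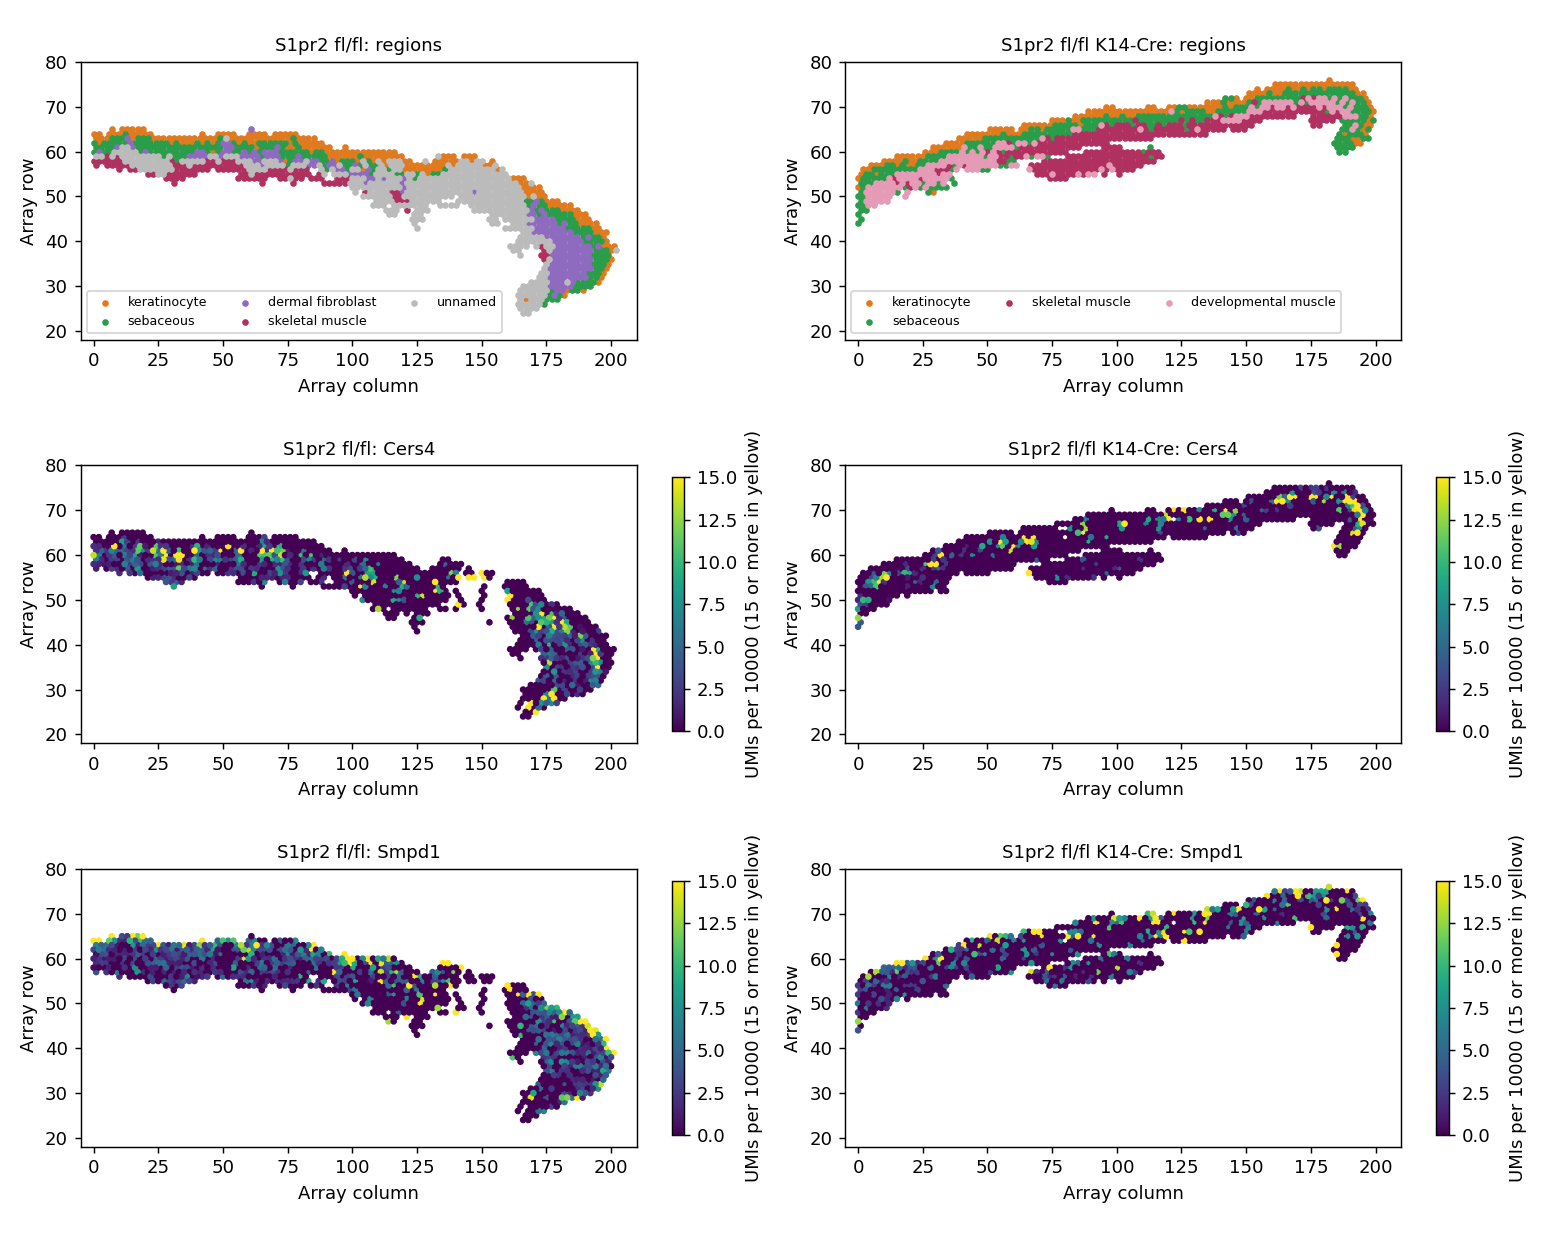
Tissue spots of both sections by array column and row. The upper panels are coloured by region, the middle and lower panels by UMIs of *Cers4* and *Smpd1* per 10000 UMIs of the spot, for spots with at least 500 UMIs. Yellow *Smpd1* spots lie mostly at the upper edge and yellow *Cers4* spots mostly in the layer beneath it. Spots outside connected groups of at least 20 are not drawn.

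*Smpd1* and *Degs2* marked the surface of both sections. *Smpd1* stood at 681 CPM in the *S1pr2 fl/fl* keratinocyte region (755 UMIs) against 210 CPM in the rest of the section, 1.70 on the log2 scale (95% interval 1.55 to 1.84). In *K14-Cre* it stood at 599 CPM (299 UMIs) against 167 CPM, or 1.85 (1.62 to 2.07). The keratinocyte level was thus more than 3-fold that of the rest in both sections. *Degs2* had 122 CPM (135 UMIs) against 34.2 CPM in *S1pr2 fl/fl*, a log2 ratio of 1.83 (1.48 to 2.18). The *K14-Cre* values were 70.1 CPM (35 UMIs) against 18.3 CPM, a log2 ratio of 1.94 (1.25 to 2.61). Skeletal muscle held the least *Degs2* of the named *S1pr2 fl/fl* regions, with 9.69 CPM (7 UMIs).

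The 2 keratinocyte clusters of the *S1pr2 fl/fl* section differed in both genes. A cluster of 101 spots led by cornified envelope genes such as *Lce3a* and *Sprr2f* had 984 CPM of *Smpd1* (95% interval 851 to 1131), and the other, of 121 spots, 614 CPM (564 to 667). *Degs2* stood at 195 CPM (139 to 266) and 106 CPM (85.5 to 129). *Ugcg* followed the same order, with 385 CPM (304 to 481) and 265 CPM (233 to 301), and the intervals of each pair did not overlap. *Degs1* had the opposite order, with 460 CPM (370 to 564) in the cluster of 101 spots and 643 CPM (592 to 698) in the other. The cluster of 101 spots was shallower, with a median of 1812 UMIs per spot against 6814. The part of depth in these differences was not tested. In the spots with the most and the least differentiation genes, described below, *Smpd1* had 830 and 594 CPM, *Degs2* 124 and 133, and *Ugcg* 266 and 297.

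Over the 14 clusters of both sections, the log2(CPM + 5) of *Smpd1* and *Degs2* had a Pearson correlation of 0.90, a description over clusters that share libraries and depth. The 250 bases before their RefSeq starts (GRCm38.p6, minus strand for *Degs2* and plus strand for *Smpd1*) are shown because these 2 genes had the highest keratinocyte ratios in both sections. *Degs2* is at chr12:108702307-108702556 and *Smpd1* at chr7:105554110-105554359, and both windows end 1 base before the annotated gene. Capitals mark GC boxes (GGGCGG or its reverse complement CCGCCC) and CCAAT boxes (CCAAT or ATTGG).
Degs2: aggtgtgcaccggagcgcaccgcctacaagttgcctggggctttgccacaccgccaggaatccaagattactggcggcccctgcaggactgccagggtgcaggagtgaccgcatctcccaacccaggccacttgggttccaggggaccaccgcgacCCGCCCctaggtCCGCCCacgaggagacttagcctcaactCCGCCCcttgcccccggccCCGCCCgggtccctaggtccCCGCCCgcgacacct
Smpd1: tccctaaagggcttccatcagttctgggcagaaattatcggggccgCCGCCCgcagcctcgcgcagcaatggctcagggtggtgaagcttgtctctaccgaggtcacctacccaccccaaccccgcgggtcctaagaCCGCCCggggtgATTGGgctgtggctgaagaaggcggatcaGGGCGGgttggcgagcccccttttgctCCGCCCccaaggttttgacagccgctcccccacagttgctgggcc
The *Degs2* window held 5 GC boxes and no CCAAT box, with 69.2% G and C, and the *Smpd1* window 4 GC boxes and 1 CCAAT box, with 64.8%. Of 32851 promoter windows of this length, 32.7% held a GC box and 33.8% a CCAAT box, with a median G and C content of 52.4%. Of the 10 genes, 9 had an entry, and 8 of these 9, all but *Degs1*, held a GC box in at least 1 window. *Cers2* and *Sgms1* had more than 1 window each, some without a GC box, so this count per gene cannot be compared with the share per window. A match is a description of the letters and not a binding site.

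*Degs1* and *Sptlc1* were also higher at the surface in both sections, and *Sptlc2* had an interval above 0 in *K14-Cre* alone. *Degs1* stood at 610 CPM (677 UMIs) in the *S1pr2 fl/fl* keratinocyte region and 328 CPM in the rest, a log2 ratio of 0.89 (0.76 to 1.03). The *K14-Cre* values were 852 CPM (425 UMIs) and 288 CPM, a log2 ratio of 1.56 (1.39 to 1.74). *Sptlc1* had 216 and 139 CPM in *S1pr2 fl/fl*, a log2 ratio of 0.64 (0.41 to 0.86). In *K14-Cre* it had 222 and 90.3 CPM, a log2 ratio of 1.30 (0.96 to 1.64). The larger *K14-Cre* ratios of *Sptlc1* thus came with a lower level outside the keratinocytes and nearly the same level within them. *Sptlc2* differed little in *S1pr2 fl/fl*, with 278 and 257 CPM and a log2 ratio of 0.11 (-0.08 to 0.30). In *K14-Cre* it stood at 365 and 128 CPM, a log2 ratio of 1.51 (1.23 to 1.78). All 3 ratios were larger in *K14-Cre*, with intervals that did not overlap those of *S1pr2 fl/fl*, but with the TMM factor of edgeR they were 1.29 and 1.26 for *Sptlc1*, 1.54 and 1.52 for *Degs1*, and 0.76 and 1.47 for *Sptlc2* in *S1pr2 fl/fl* and *K14-Cre*. The rest also differed in make-up. Skeletal muscle regions held 722151 of 5315351 UMIs in *S1pr2 fl/fl* and 826393 of 2845826 in *K14-Cre*, where developmental muscle held 792278 more. In skeletal muscle, *Sptlc1* had 80.3 and 70.2 CPM, *Sptlc2* 165 and 79.9 CPM, and *Degs1* 155 and 125 CPM. The part of this make-up in the larger ratios was not tested.

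The 2 ceramide synthases lay beneath the surface. *Cers4*, a ceramide synthase known from sebaceous glands and hair follicles, stood at 559 CPM (908 UMIs) in the *S1pr2 fl/fl* sebaceous region. It had 316 CPM in the dermal fibroblast region, 176 CPM in skeletal muscle and 46.9 CPM (52 UMIs) in the keratinocyte region. In *K14-Cre* the order was 547 CPM (398 UMIs) in the sebaceous region, 94.7 CPM in developmental muscle, 70.1 CPM in keratinocytes and 36.3 CPM in skeletal muscle. The sebaceous region exceeded the rest of its section by a log2 ratio of 1.60 (1.46 to 1.75) in *S1pr2 fl/fl* and 3.05 (2.77 to 3.34) in *K14-Cre*. Of the genes with at least 20 UMIs, 99.1% and 99.6% had a lower ratio. In the 15% of spots richest in sebaceous markers, which need no clusters, *Cers4* reached 984 CPM (922 to 1049) and 746 CPM (665 to 835).

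*Cers2*, which makes ceramides of very long fatty acids in many tissues, was low at the surface. It had 15.3 CPM (17 UMIs) in the *S1pr2 fl/fl* keratinocyte region against 52.1 CPM in the rest, a log2 ratio of -1.76 (-2.57 to -1.05). In *K14-Cre* it had 28.1 CPM (14 UMIs) against 66.5 CPM, a log2 ratio of -1.24 (-2.15 to -0.45). *Asah1* was low there too, with 39.7 CPM (44 UMIs) against 104 CPM in *S1pr2 fl/fl*, a log2 ratio of -1.40 (-1.88 to -0.95). The *K14-Cre* levels were 56.1 CPM (28 UMIs) and 153 CPM, a log2 ratio of -1.44 (-2.05 to -0.89). Its highest named regions were dermal fibroblast in *S1pr2 fl/fl* (136 CPM) and developmental muscle in *K14-Cre* (215 CPM). In the latter, markers of dermal fibroblasts made up 3.58% of the UMIs, of skeletal muscle 5.48% and of developmental muscle 0.181%. The *K14-Cre* spots richest in dermal fibroblast markers had 207 CPM of *Asah1* (169 to 251), and those richest in skeletal muscle markers 65.6 CPM (44.0 to 94.3). *Asah1* and *Cers2* went together over the 14 clusters (r = 0.88) and ran against *Smpd1* (r = -0.80 for *Asah1* and -0.83 for *Cers2*).

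*Ugcg* was the 1 gene of the 10 that was higher among keratinocytes than in the rest in *S1pr2 fl/fl* and not in *K14-Cre*. It stood at 287 CPM (318 UMIs) in the *S1pr2 fl/fl* keratinocyte region against 156 CPM in the rest, a log2 ratio of 0.88 (0.68 to 1.07). In *K14-Cre* it had 66.1 CPM (33 UMIs) against 71.6 CPM, a log2 ratio of -0.11 (-0.70 to 0.43). All 4 named *K14-Cre* regions lay between 66.1 and 73.2 CPM, but their clusters differed, with 111 CPM (77.6 to 155) and 43.5 CPM (25.8 to 68.7) in the 2 sebaceous clusters and 90.6 and 47.8 CPM in the 2 muscle clusters. *Sgms1* was the most even of the 10, between 37.9 and 68.0 CPM in all named regions of both sections. Its keratinocyte region lay below the rest in *S1pr2 fl/fl*, with a log2 ratio of -0.53 (-1.03 to -0.05) that turned to 0.12 with the TMM factor, and at 0.17 (-0.55 to 0.84) in *K14-Cre*.

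Over the whole set, 2 of 10 genes (*Degs2*, *Smpd1*) were at least 2-fold higher in the keratinocyte region than in the rest of the *S1pr2 fl/fl* section, and 3 (*Cers2*, *Cers4*, *Asah1*) at least 2-fold lower. Of the 14300 genes that met the UMI minimum, 4.03% were that much higher and 42.3% that much lower. The median log2 ratio was 0.37 for the 10 genes and -0.76 for all genes. In *K14-Cre*, 5 genes (*Sptlc1*, *Sptlc2*, *Degs1*, *Degs2*, *Smpd1*) were at least 2-fold higher and the same 3 at least 2-fold lower, against 15.2% and 22.6% of 15548 genes, with medians of 0.74 and -0.09. With the TMM factor, the number at least 2-fold higher in *S1pr2 fl/fl* was 5. That factor moved all log2 ratios of this comparison by 0.65, and the share over all genes was not computed with it. In the sebaceous region, 1 gene (*Cers4*) was at least 2-fold higher than in the rest of the *S1pr2 fl/fl* section and 0 lower, against 5.39% and 7.27% of all genes. In *K14-Cre* the counts were 2 (*Cers4*, and *Degs2* with a log2 ratio of 1.02, 0.32 to 1.70) and 0, against 22.5% and 5.16%.

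The same layering appeared when position replaced clusters. Tissue spots were ranked from the upper edge along each pair of array columns, and 4 bands were summed, ranks 1 to 2, 3 to 4, 5 to 6, and 7 or deeper. From the surface down, *Smpd1* stood at 700.5, 288, 203 and 210 CPM in *S1pr2 fl/fl* and at 545, 257, 155 and 141 CPM in *K14-Cre*. *Cers4* peaked in the middle, with 56.4, 446, 464 and 251 CPM in *S1pr2 fl/fl* and 72.1, 602.5, 114 and 70.0 CPM in *K14-Cre*. The *Cers4* peak was therefore broad in *S1pr2 fl/fl* and limited to ranks 3 to 4 in *K14-Cre*. Sebaceous markers made up 0.115% and 0.106% of the UMIs in ranks 3 to 4 and 5 to 6 of *S1pr2 fl/fl*, and 0.0750% and 0.0154% in *K14-Cre*. *Asah1* was lowest at the surface, with 40.9, 74.5, 102.5 and 115 CPM in *S1pr2 fl/fl* and 60.7, 121.5, 173.5 and 158 CPM in *K14-Cre*. *Ugcg* went from 291 CPM in the outer band to 149 CPM in the deepest in *S1pr2 fl/fl*, and stood at 60.7, 80.4, 101 and 54.0 CPM in *K14-Cre*, highest at ranks 5 to 6. The outer band over the deepest gave *Degs1* a log2 ratio of 1.21 (1.04 to 1.38) and 2.45 (2.19 to 2.72), and *Sptlc2* -0.02 (-0.25 to 0.22) and 1.86 (1.52 to 2.21). Skeletal muscle markers made up 3.83% of the UMIs in the deepest *S1pr2 fl/fl* band and 11.0% in *K14-Cre*, and their part in these differences was not tested.

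**Figure D2:**
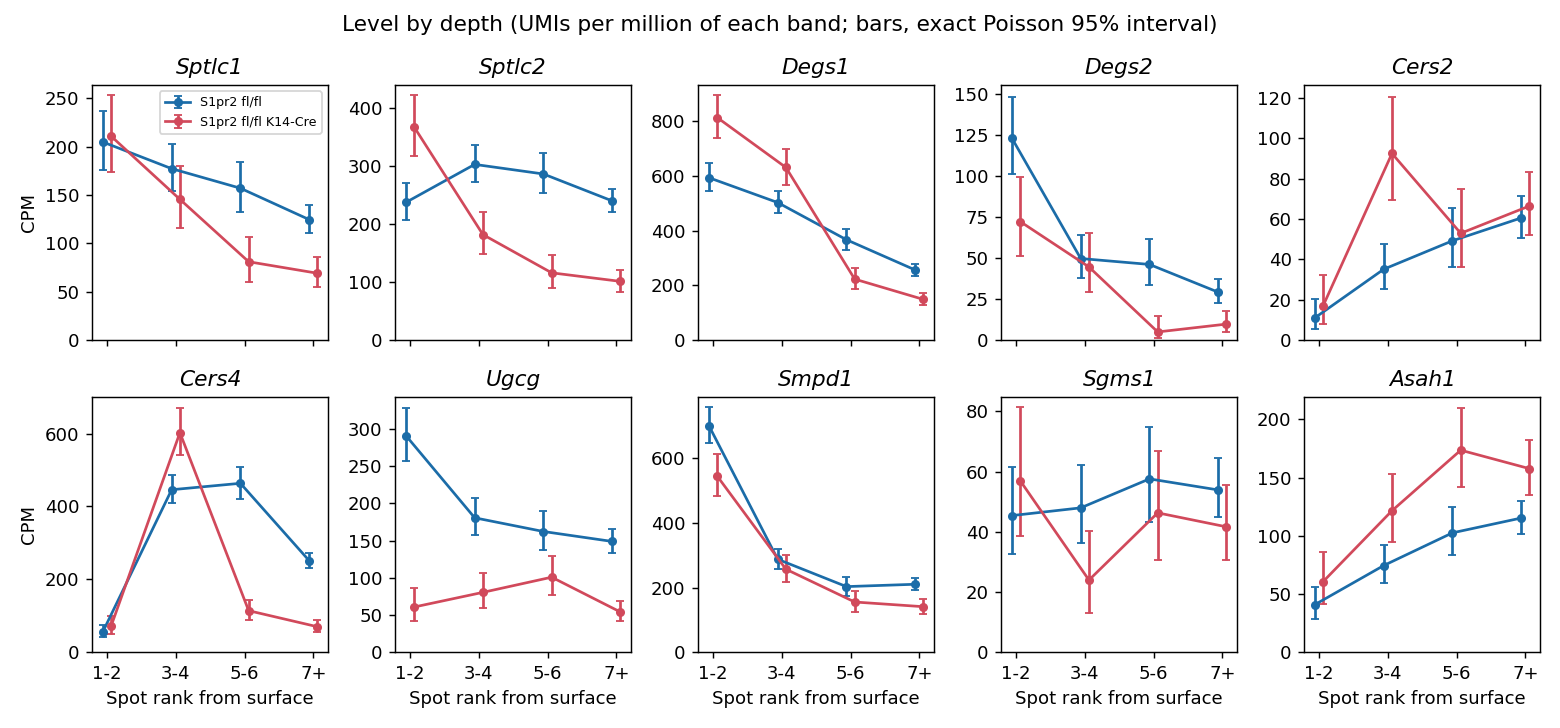
Level of each gene in CPM by spot rank from the skin surface, in *S1pr2 fl/fl* (blue) and *S1pr2 fl/fl K14-Cre* (red). Points are sums over a band of spots and bars exact Poisson 95% intervals, and each panel has its own scale from 0. *Ugcg* lies lower in *K14-Cre* in all 4 bands, *Asah1* lies higher, and *Cers4* peaks beneath the surface in both sections.

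**Figure D3:**
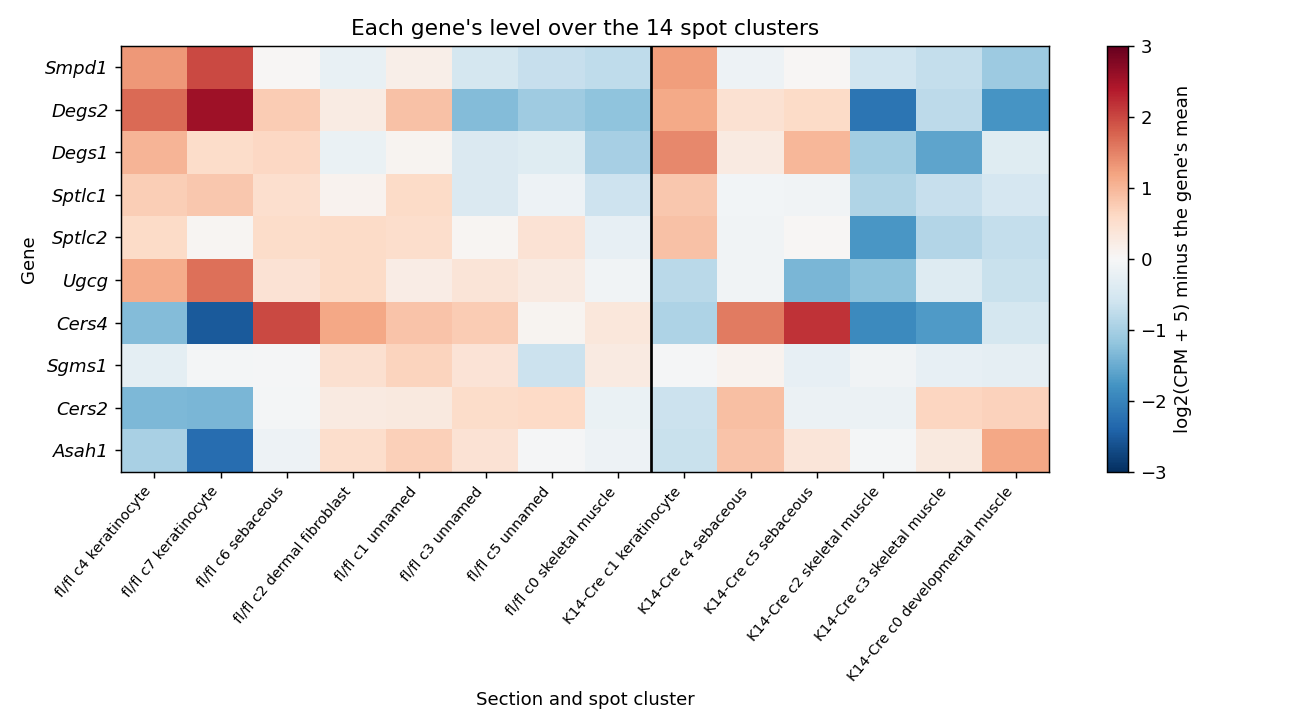
Log2(CPM + 5) of each gene in the 14 spot clusters, as the difference from the gene's mean over clusters, with the *S1pr2 fl/fl* clusters left of the line. *Smpd1*, *Degs2* and *Degs1* are high (red) in the keratinocyte clusters, *Cers4* in the sebaceous clusters, and *Cers2* and *Asah1* are low (blue) in the keratinocyte clusters.

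Between the sections, *Ugcg* was the gene with the largest difference in the keratinocyte region. It stood 4.33-fold lower in *K14-Cre*, at 66.1 against 287 CPM, with a log2 ratio of -2.12 (-2.68 to -1.60) that was lower than those of all but 2.22% of the genes. Over the alternatives that could be run it lay between -2.95 and -2.05. A joint clustering of both sections gave no value here, because its keratinocyte cluster drew 153 spots from *S1pr2 fl/fl* and 0 from *K14-Cre*. *Degs2* was also lower, at 70.1 against 122 CPM, with a log2 ratio of -0.79 (-1.37 to -0.25). *Degs1* and *Sptlc2* were higher by log2 ratios of 0.48 (0.30 to 0.66) and 0.39 (0.12 to 0.66), which turned to -0.35 and -0.44 with the TMM factor. The intervals of *Sptlc1* (0.04), *Cers2* (0.87), *Cers4* (0.58), *Smpd1* (-0.18), *Sgms1* (0.25) and *Asah1* (0.50) held 0, and with the TMM factor *Sptlc1*, *Cers4*, *Sgms1* and *Asah1* were below 0. That factor moved all log2 ratios of this comparison by -0.83.

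No gene of the 10 was at least 2-fold higher in the *K14-Cre* keratinocyte region and 1 (*Ugcg*) at least 2-fold lower, against 25.3% and 12.5% of 8640 genes. The median log2 ratio was 0.32 for the 10 genes and 0.27 for all genes. Several other values moved with this comparison. Receptor genes stood at 9520 CPM in *K14-Cre* and 1431 CPM in *S1pr2 fl/fl*, the median spot held 2149 and 3776.5 UMIs, and the share of differentiation genes differed as given above. Their part in the result was not tested. When each gene was lowered by the receptor genes' mean count, *Ugcg* gave -2.29.

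The sebaceous region gave *Ugcg* the same direction, at 72.8 against 164 CPM and a log2 ratio of -1.17 (-1.63 to -0.75) that was -0.82, under 2-fold, as a mean over spots. *Sptlc1* and *Sptlc2* stood lower here too, with log2 ratios of -0.63 (-0.99 to -0.27) and -0.59 (-0.87 to -0.31). *Asah1* was higher, at 143 against 83.1 CPM, with a log2 ratio of 0.78 (0.40 to 1.16) that was 0.22 with the TMM factor. *Cers4*, the gene highest in this region, stood at 547 against 559 CPM, a log2 ratio of -0.03 (-0.20 to 0.14) that lay between -0.60 (TMM factor) and 0.38 (resolution 0.5) over the alternatives, with -0.40 in the marker-rich spots. The intervals of *Degs1* (0.12), *Degs2* (-0.27), *Cers2* (0.49), *Smpd1* (-0.08) and *Sgms1* (-0.05) held 0, and the TMM factor turned *Degs1* to -0.44 and *Cers2* to -0.07. Of the 10 genes, 0 were at least 2-fold higher and 1 (*Ugcg*) lower, against 26.9% and 8.06% of 13198 genes. Receptor genes stood at 12369 CPM in *K14-Cre* and 3031 CPM in *S1pr2 fl/fl* here. The tissue make-up differed too. Sebaceous markers accounted for 0.0676% of the *K14-Cre* UMIs against 0.144%, and keratinocyte markers for 1.87% against 5.94%. Skeletal muscle markers accounted for 1.20% against 0.171%, and dermal fibroblast markers for 1.90% against 1.24%. A joint clustering of both sections gave a sebaceous cluster that drew 249 spots from *S1pr2 fl/fl* and 2 from *K14-Cre*. The part of these values in the differences was not tested.

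In skeletal muscle, 9 of the 10 genes had at least 20 UMIs over both sections, all but *Degs2*. *Cers4* stood at 36.3 CPM (30 UMIs) in *K14-Cre* and 176 CPM (127 UMIs) in *S1pr2 fl/fl*, a log2 ratio of -2.28 (-2.90 to -1.69). *Sptlc2* had 79.9 and 165 CPM, a log2 ratio of -1.04 (-1.50 to -0.60). These 2 genes were at least 2-fold lower and 0 higher, against 14.4% and 5.3% of 9188 genes. *Ugcg* was lower by a log2 ratio of -0.68 (-1.20 to -0.17), which was -1.04 at resolution 0.5 and -2.22 in the spots richest in muscle markers (20.4 against 95.2 CPM, 9 and 58 UMIs). The intervals of the other 6 tested genes held 0. Sebaceous markers made up 0.0321% of the UMIs of the *S1pr2 fl/fl* muscle region and 0.00557% of the *K14-Cre* one, and keratinocyte markers 1.76% and 0.308%. Skeletal muscle markers made up 8.66% and 14.1%. When both sections were clustered jointly, a muscle cluster with *Myh2* among its leading genes held 128 *S1pr2 fl/fl* and 0 *K14-Cre* spots. The part of these values in the *Cers4* and *Sptlc2* differences was not tested. The unnamed *S1pr2 fl/fl* cluster with muscle markers, which is not in the muscle region, had 146 CPM of *Cers4* (95.4 to 214) and 146 CPM of *Ugcg*.

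Over whole sections, *Ugcg* stood at 70.6 against 183 CPM (201 and 974 UMIs), giving a log2 ratio of -1.38 (-1.60 to -1.15). It was the 1 gene of 10 at least 2-fold lower, with 0 higher. Among 18125 genes, 4.59% were that much lower and 28.5% higher, and the median log2 ratio was 0.40 for all genes and -0.40 for the 10. *Asah1* and *Cers2* were higher, with log2 ratios of 0.58 (0.38 to 0.77) and 0.43 (0.13 to 0.72). These lay near the median of all genes, with 57.2% and 51.4% of genes lower, and were 0.21 and 0.06 with the TMM factor. *Degs2* (-0.94), *Cers4* (-0.66), *Sptlc2* (-0.62), *Sptlc1* (-0.45), *Smpd1* (-0.35) and *Sgms1* (-0.32) were lower, each with an interval below 0, and *Degs1* stood at 387 CPM in both (-0.37 with the TMM factor). The sections hold different shares of each layer, with skeletal muscle markers at 1.86% and 5.97% of all UMIs and keratinocyte markers at 5.77% and 1.72%.

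**Figure D4:**
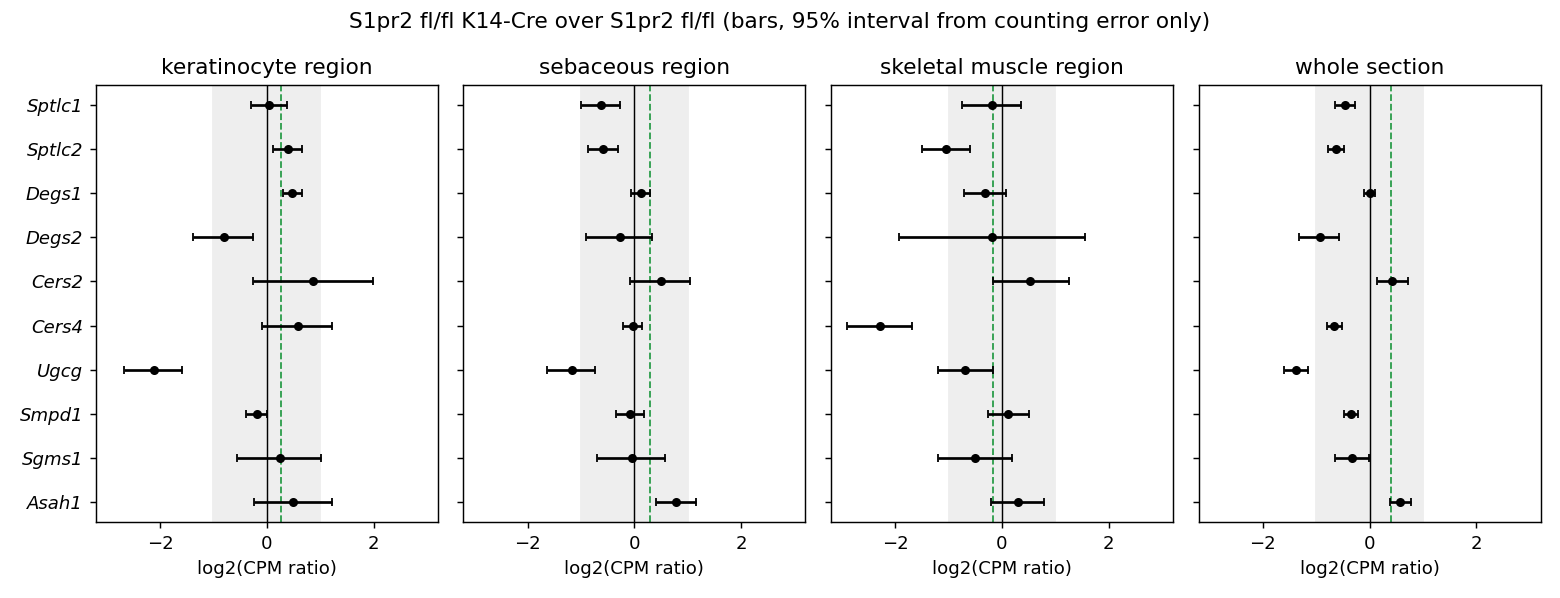
Log2 ratio of CPM, *K14-Cre* section divided by *S1pr2 fl/fl* section, for the 10 genes in 3 regions and in the whole section. Bars are 95% intervals from counting error, the grey band marks less than a 2-fold difference and the dashed green line the median of all genes with at least 20 UMIs. *Ugcg* lies left of the band in the keratinocyte and sebaceous regions and in the whole section, *Cers4* and *Sptlc2* in skeletal muscle, where *Degs2* (7 UMIs in each section) is drawn below the UMI minimum.

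Each region was also divided along the section into 4 segments, which share a library and are not replicates. *Ugcg* stood at 322, 303, 254 and 244 CPM in the *S1pr2 fl/fl* keratinocyte segments. In *K14-Cre* it stood at 75.6, 64.7, 56.5 and 56.7 CPM, from 17, 4, 5 and 7 UMIs. All *K14-Cre* segments lay below all *S1pr2 fl/fl* segments. In the sebaceous region it ranged from 154 to 196 CPM and from 43.3 to 123 CPM, again without overlap. *Degs2* in keratinocytes (90.5 to 139 and 11.3 to 88.9 CPM), *Sptlc2* in the sebaceous region (268 to 342 and 157 to 215 CPM) and *Cers4* and *Sptlc2* in muscle did not overlap either, with *K14-Cre* lower each time. The other 24 of the 30 pairs of gene and region overlapped, *Degs1* in keratinocytes among them (516 to 718 and 598 to 926 CPM). For *Degs2* the ranges were narrowly apart, with 88.9 CPM as the highest *K14-Cre* value and 90.5 CPM as the lowest *S1pr2 fl/fl* value. Its lowest *K14-Cre* value, 11.3 CPM, came from 1 UMI. Segments were summed for the genes of the set alone. The share of all genes without overlap is therefore not known, and whether this number of pairs is unusual was not tested. *Cers4* in the sebaceous region reached 903 CPM in 1 *K14-Cre* segment and 400 to 474 CPM in the other 3.

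**Figure D5:**
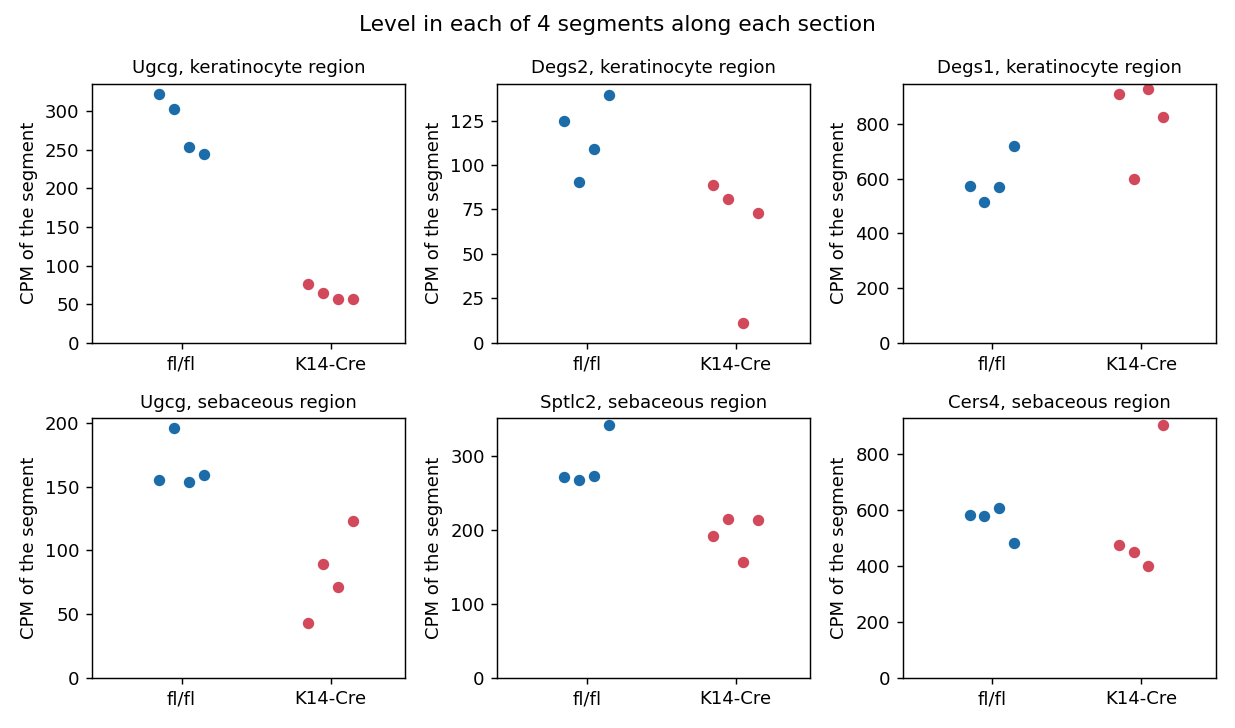
CPM of 5 genes in 4 segments along each section, for the keratinocyte region (upper panels) and the sebaceous region, with 1 point per segment and axes from 0. In these 6 panels the points of *Ugcg*, *Degs2* and *Sptlc2* do not overlap between the sections and those of *Degs1* and *Cers4* do.

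Within the keratinocyte region, the spots with the most differentiation genes relative to basal genes were set against those with the least. The split rested mainly on the differentiation genes, with log2 ratios for *Krt10* of 3.11 in *S1pr2 fl/fl* and 4.86 in *K14-Cre*. Of the basal genes, *Krt5*, *Krt14* (-0.56 and -0.45) and *Itga6* were lower in both sections. *Krt15* was higher, at 0.45 (-0.46 to 1.40) and 2.03 (0.84 to 3.34), and *Col17a1* had intervals that held 0. In *S1pr2 fl/fl* (74 spots each), *Smpd1* had 830 against 594 CPM, a log2 ratio of 0.48 (0.23 to 0.74). *Cers4* had 22.8 against 86.0 CPM (9 and 31 UMIs), giving -1.92 (-3.17 to -0.81). *Sptlc2* had 256 against 344 CPM, giving -0.43 (-0.82 to -0.04). The other 7 of the 10 enzymes, *Ugcg* (266 and 297 CPM) and *Degs2* (124 and 133 CPM) among them, had intervals that held 0. In *K14-Cre* (59 spots each) the intervals of all 10 enzymes held 0. *Ugcg* had 95.6 against 38.2 CPM there, from 10 and 7 UMIs. Its log2 ratio of 1.32 (-0.22 to 2.95) had an interval too wide to give a direction.

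Named by the likeness of their level over the 14 clusters among 7583 genes with at least 200 UMIs, the genes nearest to *Cers4* were *Soat1* (r = 0.97), *Fa2h* (0.95) and *Krt15* (0.94). *Soat1* is a sterol acyltransferase and was one of the sebaceous markers, and *Fa2h* makes 2-hydroxy fatty acids for ceramides. *Smpd1* was nearest to *Maff* (0.98), *Dedd2* and *S100a7a*, *Degs2* to *Rbp2* (0.93), *Ctsd* and *Slc7a11*, and *Degs1* to *Rcor1* (0.97), *Gjb5* and *Prelid1*. *Sptlc1* was nearest to *Ppfia1* (0.96), *Alox8* and *Gk*, *Sptlc2* to *Cd44* (0.94), *Tmem41a* and *Supt20*, and *Ugcg* to *March7* (0.93), *Sh3kbp1* and *Serpinb8*. *Asah1* was nearest to *Col1a2* (0.98), *Itgb2* and *Nnmt*, *Cers2* to *Lyz1* (0.97), *Sparcl1* and *Agmo*, and *Sgms1* to *Kansl1* (0.86), *Zfp68* and *Ap2m1*.

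A list of 29 further genes of ceramide and sphingomyelin metabolism gives the setting of the 10. In the keratinocyte region over the rest, 28 met the UMI minimum, of which 4 stood at least 2-fold higher and 8 lower in *S1pr2 fl/fl*, and 10 higher and 6 lower in *K14-Cre*, against 4.03% and 42.3% of all genes in *S1pr2 fl/fl* and 15.2% and 22.6% in *K14-Cre*. *Cers3*, the ceramide synthase of ultra-long barrier ceramides, had 352 CPM in *S1pr2 fl/fl* keratinocytes and 451 CPM in *K14-Cre*, with log2 ratios over the rest of 1.62 and 3.39. *Asah2* (2.05 and 2.50), the neutral sphingomyelinase *Smpd3* (2.36 and 1.82), and *Gba2* (1.89 and 2.33) were higher there in both sections. *Sptlc3* (2.89), *Col4a3bp* (1.01), *Smpd2* (1.11), *Smpdl3b* (1.16, interval -0.09 to 2.31), *Acer1* (2.32) and *Acer2* (1.70) passed 2-fold in *K14-Cre* alone. In *S1pr2 fl/fl*, *Sptlc3* had 118 CPM in the keratinocyte region against 72.4 CPM over the whole section, and *Acer1* 267 against 163 CPM. Both were thus higher there too, though under 2-fold over the rest. *Smpd2* had 59.5 against 47.8 CPM, *Acer2* 41.5 against 35.2, *Smpdl3b* 20.7 against 20.7 and *Col4a3bp* 101 against 130 CPM. *Fa2h* (-3.22 and -1.59), *Psap* (-1.84 and -1.27), *Cers1* (-2.54 and -1.03), *B4galt5* (-1.93 and -1.73) and *B4galt6* (-2.43 and -1.56) were lower in both. *Cers5* (-1.83) and *Sgms2* (-2.40, interval -5.49 to -0.45, 2 UMIs) were lower in *S1pr2 fl/fl*, and *Samd8* (-3.32, -6.39 to -1.43, 2 UMIs) in *K14-Cre*. *Galc* had 0 UMIs in the *S1pr2 fl/fl* keratinocyte region and 24 in the rest, at least 2.11-fold lower when a count of 0 is taken to allow 3.

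In the sebaceous region over the rest, *Fa2h* stood out with 1002 CPM in *S1pr2 fl/fl* and 444 CPM in *K14-Cre*, 3.89-fold and 9.21-fold the level of the rest. With it, *Ormdl1* (1.08) and *Cers5* (1.33) were at least 2-fold higher in *S1pr2 fl/fl*, and *Ormdl3* (1.19) and *Smpdl3b* (1.26) in *K14-Cre*. *Cers1* (-1.18), *Ugt8a* (-1.40) and *B4galt6* (-1.17) were lower in *S1pr2 fl/fl*, and *Gba2* (-1.68, -4.04 to 0.01, 3 UMIs), *Ugt8a* (-1.88, -4.23 to -0.20, 3 UMIs) and *B4galt5* (-1.62) in *K14-Cre*. In each section this made 3 of 28 listed genes higher and 3 lower. Of all genes, 5.39% were that much higher and 7.27% lower in *S1pr2 fl/fl*, and 22.5% and 5.16% in *K14-Cre*. *Cers4* and *Fa2h* were thus the genes of both lists at least 2-fold higher in the sebaceous region of both sections.

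Between the sections, the keratinocyte region had 6 of 23 listed genes at least 2-fold higher in *K14-Cre* and 4 lower, against 25.3% and 12.5% of all genes. The higher ones were *Cers1* (3.24, 17 and 4 UMIs), *Col4a3bp* (1.70), which carries ceramide to the Golgi, *Ormdl3* (1.57) and *Ormdl1* (1.32), regulators of serine palmitoyltransferase, *Smpd4* (1.44) and *Acer2* (1.18). The lower ones were *Samd8* (-3.46, -6.55 to -1.53, 2 and 49 UMIs), *Smpd3* (-2.14), *Gba2* (-1.91) and *Smpdl3a* (-1.67). In the sebaceous region *Cers1* (3.03) was higher, and *Gba2* (-3.21, -5.53 to -1.60, 3 and 62 UMIs), *Sptlc3* (-2.33), *Smpd3* (-1.58), *Smpdl3a* (-1.57) and *Fa2h* (-1.18) were lower, 1 and 5 of 26, against 26.9% and 8.06% of all genes. In skeletal muscle 0 of 23 were higher and 7 lower, against 5.3% and 14.4% of all genes, namely *Sptlc3* (-3.59, -6.72 to -1.55, 2 and 21 UMIs), *Fa2h* (-3.08), *Cers3* (-2.42), *Acer1* (-2.05), *Acer2* (-1.42), *Ormdl3* (-1.19) and *Gba2* (8 and 14 UMIs, with an interval that held 0). Over whole sections *Cers1* (1.87) and *Galc* (1.07) were higher, and *Gba2* (-2.23), *Smpd3* (-1.97), *Sptlc3* (-1.93), *Fa2h* (-1.70) and *Smpdl3a* (-1.39) lower, 2 and 5 of 28, against 28.5% and 4.59% of all genes. *Galc* lay near the 95th percentile of the receptor genes, with 27 UMIs against 34 in *K14-Cre* and 24 against 22 in *S1pr2 fl/fl*. *Cers1* stood at that percentile, 4 UMIs, among *S1pr2 fl/fl* keratinocytes. Summed receptor genes were themselves higher in *K14-Cre*, by log2 ratios of 1.43 over whole sections and 2.73 in the keratinocyte region. Their part in the *Galc* and *Cers1* values was not tested.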

How the data were processed

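Per the labels and the file headers, FFPE sections of 10 µm on capture areas with 11 mm sides were hybridized with probes, and the authors deposited matrices of raw UMI counts for each gene in each spot, which name Space Ranger 3.0.0. The genome build named in the submitters' processing notes is mm10, and the probe set is not given in the sources used here. Spots over tissue with at least 50 UMIs were clustered per section with scanpy 1.11.5 and igraph 0.11.9 (log-normalized counts, 2000 variable genes, 20 components, 15 neighbours, Leiden resolution 1). A cluster was called by the marker list of which at least 50% of genes were 2-fold or more above the remaining spots, with at least 5 UMIs. A cluster stayed unnamed where its median UMIs were under the section's median divided by 3 with none of its markers among its 10 leading genes, or where over 2 of its 10 leading genes were markers of another list and outnumbered its own. This rule, the sebaceous comparison and the segments were chosen after seeing the data. Counts were summed and divided by all UMIs of the same spots (CPM). Intervals are exact Poisson for levels and conditional binomial (Clopper-Pearson) for ratios, at 95%, and cover counting error only. Genes counted as tested had at least 20 UMIs in the 2 groups of spots compared. All genes of the set were described, list genes were named where at least 2-fold apart, and 3 similar genes were named per gene. The members and lists were chosen with earlier results of these data known. Of 31 further pathway genes, 29 were in the matrix, and 1 other is not reported here. Alternatives were other clusterings, marker-rich or outermost spots, deep or connected spots, TMM in edgeR 4.0.16 (R 4.3.3), means over spots, receptor background taken off, and other UMI minimums. The calculation of ratios and intervals was checked on simulated Poisson counts. These hold no variation between spots, sections or mice, so the check does not bear on such variation. Promoter sequences come from RefSeq (GRCm38.p6) by symbol.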

Additional observations from a re-analysis of the deposited data

Results flagged for a closer look

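*Sptlc2* was called for a closer look because its difference between the sections ran in opposite directions in different regions, with both intervals leaving out 0. The log2 ratio of *K14-Cre* over *S1pr2 fl/fl* was 0.39 in the keratinocyte region and -1.04 in skeletal muscle, a gap of 1.44. Against the sebaceous region, at -0.59, the gap was 0.98. With 1 section per genotype the difference between regions was not tested, and with the TMM factor the keratinocyte value was -0.44, in the same direction as the others.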

How the results depend on the processing

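Of 600 values of single genes under the alternatives, 550 kept the sign of the reported value, and all 167 values of genes at least 2-fold apart did so. For the TMM factor this was fixed in advance, because its largest shift was 0.83 in size and these log2 ratios were at least 1 in size. All alternatives also used the same sections, so the count does not measure differences between mice. The TMM factor changed counts most, and it moves all genes of a comparison by the same amount. Shares and medians over all genes were computed for the reported values only, so the counts and medians that follow have none beside them. With the TMM factor, 3 genes in place of 1 were at least 2-fold lower between the sections in the keratinocyte region, the sebaceous region and the whole section, and 1 in place of 2 in skeletal muscle. The median log2 ratio in the keratinocyte region was then -0.51 in place of 0.32. Over the rest of *S1pr2 fl/fl*, 5 genes in place of 2 were at least 2-fold higher in the keratinocyte region, with a median of 1.02 in place of 0.37. The marker-rich spots gave 1 higher gene in place of 0 between the keratinocyte regions, *Cers4* with a log2 ratio of 1.53. *Cers2* had 2.73 there, from 14 UMIs in *K14-Cre* and 4 in *S1pr2 fl/fl*, below the minimum of 20, and was not counted. The mean over spots gave 1 higher and 2 lower in the keratinocyte region, 2 lower in the whole section and 0 lower in the sebaceous region, where *Ugcg* was then at -0.82. With receptor background taken off, 2 genes were lower in the whole section. In the *K14-Cre* sebaceous region over the rest, 1 gene in place of 2 was higher with resolution 0.5, marker-rich spots, TMM or receptor background taken off. The cause was not tested beyond the shift of -0.83 (keratinocyte), -0.57 (sebaceous), -0.37 (whole section) and 0.12 (muscle) that the TMM factor itself gives. Joint clustering gave no keratinocyte or sebaceous region with at least 20 *K14-Cre* spots, so these comparisons have no such value. No paired analysis was possible because each genotype has 1 section and no replicate. Depth limits *Cers2*, *Sgms1*, *Asah1*, *Ugcg*, *Degs2* and *Cers4* most in the *K14-Cre* keratinocyte region, where they had 14 to 35 UMIs.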
